A study of Mus musculus with 16 samples.

Results

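Genes by which the clear cells of the epididymis secrete protons were followed in sperm RNA of male mice on 2 diets. The set was fixed by name and holds 7 of the 24062 gene rows of the count table: Atp6v1b1, Atp6v1c2, Atp6v1g3, Atp6v0a4, Atp6v0d2, Foxi1 and Car2. The 8 HFD males received a modified D12492 diet rich in fat and calories and the 8 CD males its control diet, in both groups from 3 weeks of age and for 9 weeks before sperm were isolated. The label names the tissue as spermatozoa, and motile sperm were the starting material; neither strain nor genotype is stated by the labels. The series gives 8 mice per diet, so each library was taken as 1 animal. All 7 members passed the expression filter, which kept 13149 genes for testing.

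Clear cells line the epididymal duct among the far more numerous principal cells and acidify the fluid in which sperm are stored and kept quiescent. They do so with the vacuolar H+-ATPase (V-ATPase), a pump made of a cytosolic part, V1, that splits ATP and a membrane part, V0, that carries protons. Several subunits exist as a common isoform found in most cells and an isoform restricted to a few tissues such as kidney intercalated cells, the inner ear and the epididymis. FOXI1 is the forkhead transcription factor known to be needed for the restricted subunits in these cells, and cytosolic carbonic anhydrase II, the product of Car2, supplies protons and bicarbonate from carbon dioxide. None of these genes is exclusive to clear cells: Atp6v0d2 is also known from macrophages and osteoclasts, and Car2 from red blood cells and many epithelia.

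The start region of Atp6v1b1, which encodes the B subunit used to mark clear cells, is shown as an example with a searched forkhead string. That of Atp6v1g3, whose levels ran closest to those of Foxi1 among the members, is shown as an example without one. The strings searched were TGTTTA and TATTTA. Other forms of the forkhead motif were not searched for, so a window without a match may still hold one. RefSeq windows on GRCm38.p6, from 250 bases before to 50 after the gene start, were held for 5 of the 7 members, and TGTTTA or TATTTA, on either strand, is printed in capitals.
Atp6v1b1, chr6:83742767-83743066, plus strand: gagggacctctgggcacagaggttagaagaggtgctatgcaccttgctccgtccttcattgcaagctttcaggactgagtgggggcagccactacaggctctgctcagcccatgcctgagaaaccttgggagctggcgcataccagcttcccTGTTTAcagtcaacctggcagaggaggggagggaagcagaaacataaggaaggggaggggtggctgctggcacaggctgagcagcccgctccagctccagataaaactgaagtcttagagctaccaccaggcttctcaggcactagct
Atp6v1g3, chr1:138273488-138273787, plus strand: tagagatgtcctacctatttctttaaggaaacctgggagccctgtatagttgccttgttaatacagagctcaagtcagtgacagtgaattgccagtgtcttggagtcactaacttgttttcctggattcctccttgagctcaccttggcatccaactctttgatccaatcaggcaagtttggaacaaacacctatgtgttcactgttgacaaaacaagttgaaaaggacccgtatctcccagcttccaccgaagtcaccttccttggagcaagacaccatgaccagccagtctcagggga
Of the 5 windows, 1 held a match, that of Atp6v1b1, where TGTTTA starts 98 bases before the RefSeq gene start that sets the window, which lies downstream of the GENCODE start given further on. Among all 32851 windows of the same length, 13.4% held TGTTTA, 13.7% held TATTTA and 24.1% at least 1 of them. A match is a run of letters in this window and is not evidence of binding.

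Gene counts per library ranged from 1882555 to 7783981. HFD 4 and HFD 8 stood apart from the other 14 libraries: a list of 14 principal cell genes summed to 14442 CPM (reads of a gene scaled to library size) in HFD 4 and 8468 CPM in HFD 8 against 29151 to 81104 CPM elsewhere, and a list of 16 late spermatid genes to 17092 and 51085 CPM against 1905 to 11877 CPM. The principal cell list was present in every library, although the labelled tissue is spermatozoa alone. The late spermatid list was present in every library as well. Because HFD 4 and HFD 8 stood apart, diet differences of the members are given with and without these 2 libraries. CPM were scaled with edgeR's trimmed mean of M-values (TMM) factors over the genes tested.

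The members were present at very different levels. Per kilobase of exon, Car2 stood highest at 91.0 CPM per kb ± 29.6 (SD, n = 16) and Atp6v1g3 next at 39.0 ± 15.7, with Car2 above Atp6v1g3 in 15 of 16 libraries. Foxi1, at 16.1 CPM per kb ± 5.15, Atp6v1c2, at 14.7 ± 5.52, and Atp6v0d2, at 13.6 ± 6.24, differed by less than the spread between libraries. Within a library, Foxi1 was above Atp6v1c2 in 12 of 16, and Atp6v1c2 above Atp6v0d2 in 8 of 16. Atp6v1b1 stood at 1.32 CPM per kb ± 0.810 and Atp6v0a4 at 1.06 ± 0.677, again less apart than their spread. Within a library, Atp6v1b1 was above Atp6v0a4 in 10 of 16. The range of Atp6v1b1, 0.528 to 3.53 CPM per kb, lay wholly below that of Atp6v1g3, 13.1 to 69.7, although both encode subunits of the same V1 part. Lengths are those of all annotated exons of a gene, so genes with rarely used exons come out low on this scale.

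Depth limited the rarest members. Atp6v1b1 had 8 to 36 reads per library and Atp6v0a4 0 to 76, while Atp6v1g3 had 67 to 901 and Car2 266 to 1395. Counting error alone gives a coefficient of variation of 24.3% for Atp6v1b1 and 22.1% for Atp6v0a4, against 61.5% and 63.6% observed over the 16 libraries. For Car2 the same values were 3.63% and 32.5%, for Atp6v1g3 6.44% and 40.3%, and for Foxi1 8.74% and 32.1%. The counting error assumes that every read is a separate molecule, which amplified cDNA without molecular identifiers does not ensure.

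The diets did not differ detectably in any of the 7 members. With edgeR's quasi-likelihood test, 0 of 7 passed an adjusted p of 0.05, against 0.00% of all 13149 genes, and 0 of 7 had an unadjusted p under 0.05, against 11.3% of all genes (10.2% higher and 1.10% lower in HFD). DESeq2 called 1 of all genes, which was no member, and limma-voom with library quality weights 0. HFD over CD, 2 members lay above 0 and 5 below on the log2 scale, and their median was -0.12 beside -0.0042 for all genes tested. Without HFD 4 and HFD 8 the medians were -0.018 and -0.0046. In bulk RNA, fewer clear cells and less RNA of a gene per cell cannot be told apart.

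Among the V1 members, Atp6v1b1 encodes the B subunit, part of the ring that binds ATP (chromosome 6, 83742990 to 83758855 on GRCm38, overlapping no other annotated gene). It ran from 2.83 to 15.5 CPM in HFD with a median of 5.55, and from 2.31 to 7.66 CPM in CD with a median of 3.86. HFD 4 at 15.5 and HFD 3 at 12.3 CPM lay above every CD library, and the other 6 HFD libraries lay within the CD range. The values of these 2 libraries rest on 26 and 36 reads, with 95% Poisson intervals of 10.1 to 22.7 and 8.63 to 17.1 CPM that cover counting error only. The log2 fold change was 0.59 ± 0.40 (SE), with an edgeR adjusted p of 0.611, and 0.39 without HFD 4 and HFD 8.

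Atp6v1g3 encodes the G subunit of the stalk that joins V1 to V0 (chromosome 1, 138273738 to 138289462, with no overlapping gene). In HFD its lowest value was 24.8 CPM (HFD 7) and its highest 132 CPM (HFD 4), with a median of 75.8. Its CD values lay between 45.9 and 119 CPM with a median of 64.6. The groups overlapped widely, with the lowest and the highest of the 16 values both in HFD. HFD over CD, the log2 fold change came to 0.04 ± 0.30 (SE), with an edgeR adjusted p of 0.969, and -0.018 without HFD 4 and HFD 8.

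Atp6v1c2 encodes the C subunit, which holds the assembled pump together (chromosome 12, 17284721 to 17329359, where an exon overlaps Pdia6 on the other strand). In HFD its lowest value was 7.67 CPM (HFD 8) and its highest 50.3 CPM (HFD 7), with a median of 32.3. Its CD values lay between 22.7 and 50.7 CPM with a median of 33.3. HFD 8, HFD 4 at 16.7 and HFD 6 at 20.7 CPM lay below every CD library. On the log2 scale the change was -0.31 ± 0.30 (SE), with an edgeR adjusted p of 0.740, and -0.053 without HFD 4 and HFD 8.

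Of the V0 members, Atp6v0a4 encodes the a subunit through which protons pass (chromosome 6, 38048483 to 38124586, sharing exonic bases with Tmem213 and D630045J12Rik). It ran from 0 to 10.4 CPM in HFD with a median of 4.26, and from 1.69 to 10.1 CPM in CD with a median of 4.86. HFD 4 had 0 reads, which allows up to 1.79 CPM at 3 reads, HFD 2 lay just above the CD range, and the other 6 lay within it. The log2 fold change was -0.25 ± 0.53 (SE), with an edgeR adjusted p of 0.885, and 0.036 without HFD 4 and HFD 8. Of the genes that overlap Atp6v0a4 in exons, Tmem213 lies on the other strand and D630045J12Rik on the same. No source states whether counting used strand, and ambiguous reads, 11466 to 35137 per library, entered no gene. What these overlaps did to the counts of Atp6v0a4 and Atp6v1c2 therefore cannot be told.

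Atp6v0d2 encodes the d subunit, which links the V0 ring to the stalk (chromosome 4, 19876841 to 19922605, with no overlapping gene). In HFD its lowest value was 9.07 CPM (HFD 8) and its highest 70.8 CPM (HFD 3), with a median of 34.5. Its CD values lay between 18.1 and 58.5 CPM with a median of 34.9. The medians differed by less than either spread, and both extremes were HFD libraries. Its log2 fold change came to -0.12 ± 0.35 (SE), with an edgeR adjusted p of 0.912, and 0.017 without HFD 4 and HFD 8. Since macrophages also use this isoform, their markers are given beside it: 12 of 14 leukocyte genes were tested, and the list summed to 348 to 1412 CPM in HFD and 235 to 967 CPM in CD. It stood at 863 CPM in HFD 3, where Atp6v0d2 was highest, at 1412 CPM in HFD 8, where Atp6v0d2 was lowest, and at 235 CPM in CD 2, with Atp6v0d2 at 50.1 CPM. The part of leukocyte RNA in the level of Atp6v0d2 was not tested.

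Foxi1 (chromosome 11, 34204338 to 34208089, with no overlapping gene) was detected in every library. In HFD its lowest value was 20.6 CPM (HFD 8) and its highest 48.1 CPM (HFD 2), with a median of 36.3. Its CD values lay between 22.9 and 63.5 CPM with a median of 39.7. Of the 8 HFD libraries 7 lay within the CD range. The log2 fold change was -0.24 ± 0.24 (SE), with an edgeR adjusted p of 0.748. Without HFD 4 and HFD 8 it was -0.13. Over 16 libraries its coefficient of variation was 32.1%, beside 32.5% for Car2 and 37.5% for Atp6v1c2, and over 14 it was 30.6%, beside 33.4% and 27.7%.

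Car2 (chromosome 3, 14886273 to 14900770, with no overlapping gene) was the most abundant member. It ran from 152 to 262 CPM in HFD with a median of 227, and from 109 CPM in CD 6 to 360 CPM in CD 3 with a median of 203. All 8 HFD values lay within the CD range, and the standard deviation was 40.5 CPM in HFD and 96.1 CPM in CD. Its log2 fold change came to -0.09 ± 0.24 (SE), with an edgeR adjusted p of 0.907, and -0.053 without HFD 4 and HFD 8. Of the erythroid list, whose cells carry much of this enzyme, 4 of the 7 genes in the table, the globins Hba-a1, Hba-a2, Hbb-bs and Hbb-bt, had 0 reads counted in every library. Globin genes have near-identical copies, not uniquely aligned reads entered no gene, and these zeros therefore say nothing of red cell RNA. That list summed to 28.5 to 224 CPM in HFD and 16.8 to 88.3 CPM in CD, most of it in Alas2, and was highest in HFD 4, where Car2 stood at 158 CPM. The part of red cell RNA in the level of Car2 was not tested.

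**Figure D1:**
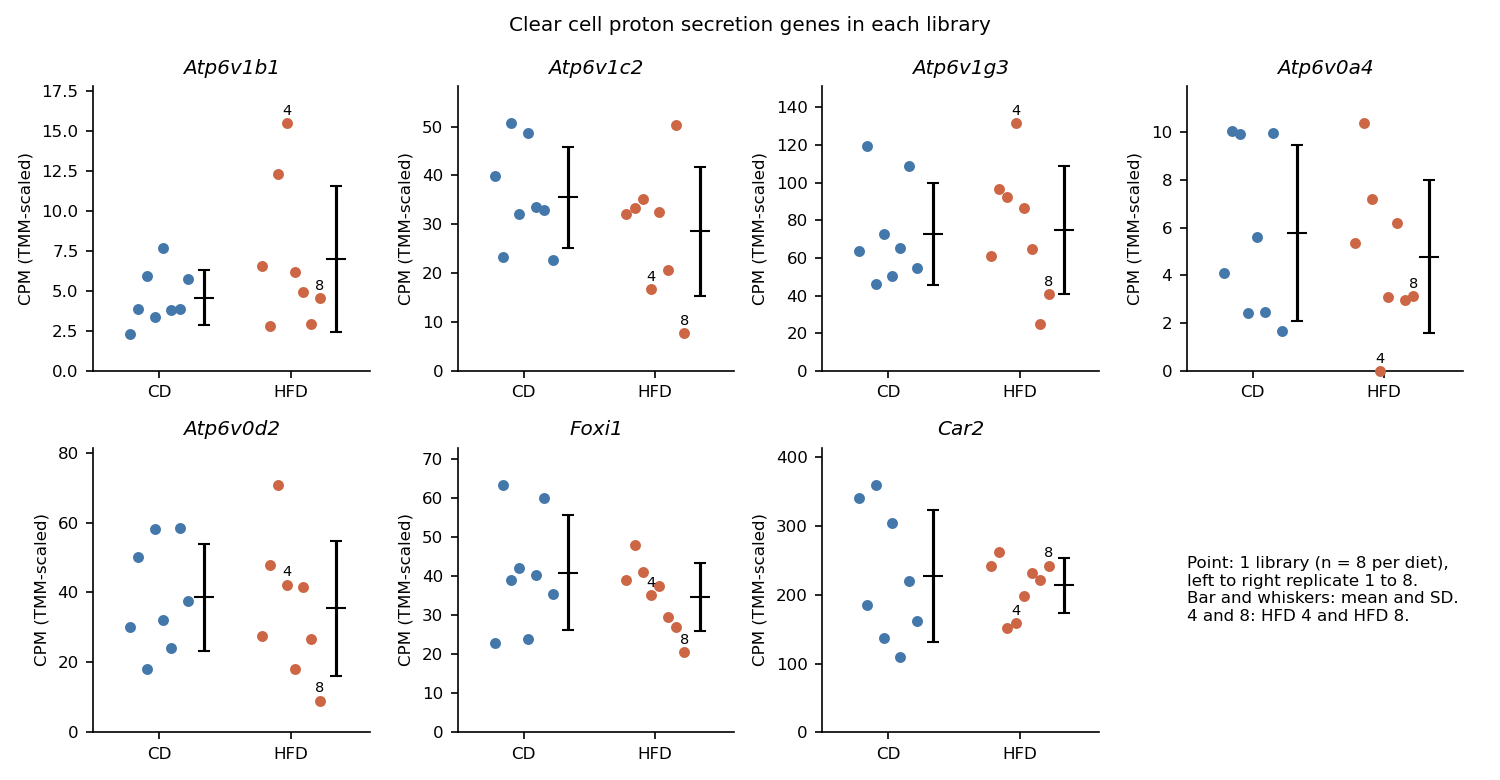
CPM (TMM-scaled, linear axes from 0) of each member in the 8 CD and 8 HFD libraries, with 1 point per library and the mean and SD beside each group. The groups overlap in every panel; HFD 4 is the highest library for Atp6v1b1 and Atp6v1g3 and has 0 reads of Atp6v0a4, and HFD 8 is the lowest for Atp6v1c2, Atp6v0d2 and Foxi1.

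**Figure D2:**
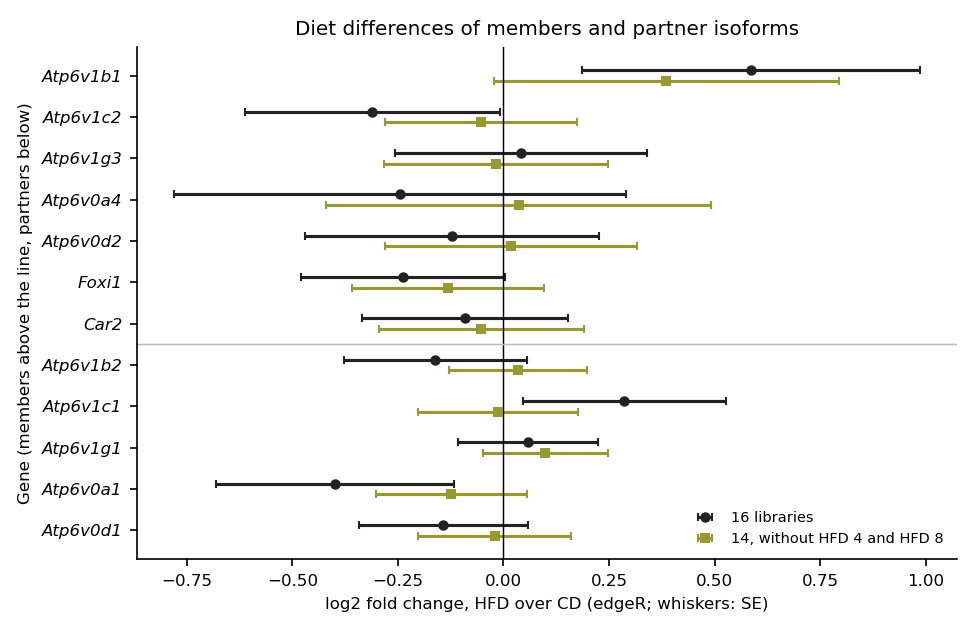
Log2 fold change of HFD over CD from edgeR for the 7 members and their 5 partner isoforms, with whiskers of 1 SE, over 16 libraries and over the 14 without HFD 4 and HFD 8. The largest member values are 0.59 for Atp6v1b1 and -0.31 for Atp6v1c2, and both are nearer 0 without these 2 libraries.

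Each restricted V-ATPase subunit was next set against the common isoform of the same subunit from the same library, so that both genes share its size and scaling. Per kilobase of exon, the common isoform was the more abundant in all 16 libraries for 4 of the 5 pairs. Atp6v1b1 made up 2.67% to 12.2% of the sum of Atp6v1b1 and Atp6v1b2 in the 14 libraries, Atp6v0a4 2.35% to 13.4% of that with Atp6v0a1, Atp6v1g3 8.04% to 28.4% of that with Atp6v1g1, and Atp6v0d2 13.3% to 37.7% of that with Atp6v0d1. The C subunit stood the other way on this scale. Atp6v1c2 made up 46.6% to 82.2% of its sum with Atp6v1c1 in the 14 libraries and was the more abundant in 13 of all 16. This order rests on the exon lengths, 2174 bases for Atp6v1c2 and 5601 for Atp6v1c1. In reads not divided by length, the mean log2 ratio of Atp6v1c2 to Atp6v1c1 was -1.12 in HFD and -0.489 in CD. The common isoforms themselves stood, over 16 libraries, at 166 CPM per kb ± 28.2 for Atp6v1g1, 46.0 ± 12.0 for Atp6v0d1, 18.8 ± 4.94 for Atp6v1b2, 12.4 ± 4.27 for Atp6v0a1 and 9.69 ± 3.36 for Atp6v1c1 (SD).

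The diets did not differ detectably in these ratios. Exact permutation tests over all assignments of the libraries to diets, two-sided, were run for the 5 pairs on log2 count ratios. The difference, HFD minus CD, was 0.64 for the B pair (exact permutation p = 0.214) and -0.63 for the C pair (exact permutation p = 0.266). For the a, G and d pairs it was 0.18, -0.097 and -0.13 (exact permutation p = 0.724, 0.759 and 0.714). With a pseudocount of 0.5 in place of 1, the difference of the a pair, which has as few as 0 reads of Atp6v0a4, was 0.068. Adjusted by Benjamini-Hochberg over the 5 pairs the smallest value was 0.665. Without HFD 4 and HFD 8 the difference of the C pair was 0.0016 and that of the B pair 0.24. Without HFD 4 alone that of the B pair was 0.32, and without HFD 8 alone that of the C pair was -0.28.

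**Figure D3:**
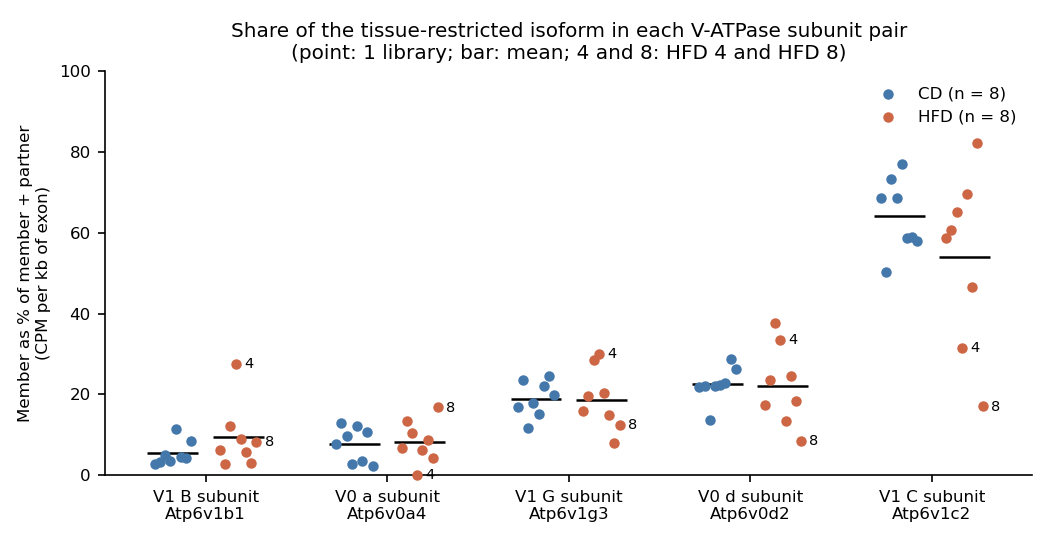
Each restricted isoform as a percentage of itself plus the common isoform of the same subunit, from CPM per kb of exon, with 1 point per library and the mean of 8 libraries as a bar. Atp6v1c2 lies above 40% in every library except HFD 4 and HFD 8, and the other members lie below 40% throughout.

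The libraries that stood apart did so unevenly among the members. In HFD 4, where principal cell genes were at 0.281 times the median of the other 14 libraries, Atp6v1b1 stood at 3.52 times, Atp6v1g3 at 2.02 times, Atp6v0d2 at 1.21 times and Foxi1 at 0.900 times their medians. In the same library Car2 was at 0.716 times and Atp6v1c2 at 0.502 times, and Atp6v0a4 had 0 reads. In HFD 8, with principal cell genes at 0.165 times, Car2 stood at 1.09 times, Atp6v1b1 at 1.03, Atp6v1g3 at 0.626, Atp6v0a4 at 0.571, Foxi1 at 0.527, Atp6v0d2 at 0.260 and Atp6v1c2 at 0.231 times.

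Of the partner isoforms, 3 lay outside the range of the other 14 libraries in both HFD 4 and HFD 8. Atp6v1c1 was at 1.95 and 2.01 times its median in HFD 4 and HFD 8, Atp6v1b2 at 0.460 and 0.571 times, and Atp6v0a1 at 0.387 and 0.230 times. Atp6v1g1, at 0.934 and 0.878 times, and Atp6v0d1, at 0.705 and 0.822 times, lay inside it. The share of all genes tested that lay outside that range in both libraries was not counted. The C subunit share of Atp6v1c2 was 31.5% in HFD 4 and 17.0% in HFD 8, and the B subunit share of Atp6v1b1 27.5% and 8.21%. Late spermatid genes stood at 3.64 and 10.9 times, leukocyte genes at 1.38 and 1.94 times and stromal genes at 2.61 and 2.12 times their medians in the same libraries. Their part in the levels of the members was not tested.

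**Figure D4:**
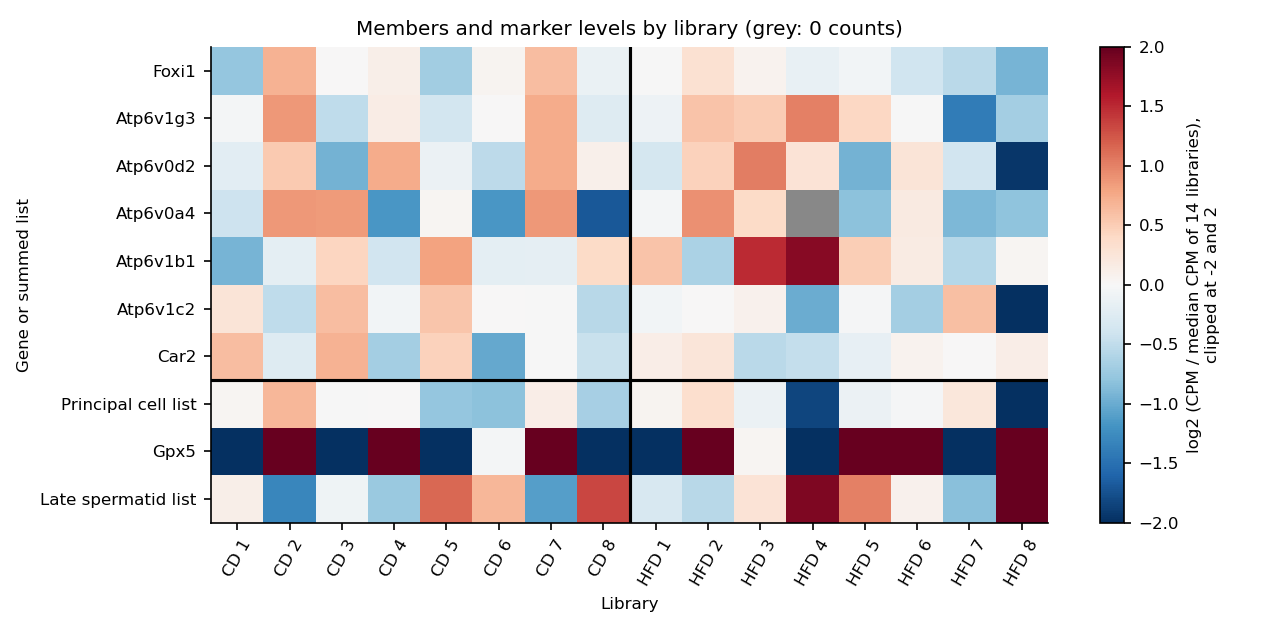
Log2 of CPM over the median of the 14 libraries for the 7 members (above the line) and for the principal cell list, Gpx5 and the late spermatid list (below it) in each library, with colours clipped at -2 and 2 and grey for 0 reads. Foxi1, Atp6v1g3 and Atp6v0d2 share high values in CD 2, CD 7 and HFD 2, while Car2 and Atp6v1c2 share high values in CD 1, CD 3 and CD 5.

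The members did not follow a common pattern over the libraries. Likeness was measured as Pearson's correlation of log2 CPM over the 14 libraries, with each pair of genes read from the same libraries and sharing their scaling, and is given as a description. Foxi1 and Atp6v1g3 ran together (r = 0.71, Spearman's rho = 0.78), and of 13148 other genes Foxi1 was the one in place 76 in likeness to Atp6v1g3. Atp6v0d2 came next (r = 0.54 with Atp6v1g3 and 0.42 with Foxi1). Over all 16 libraries r was 0.67 for Foxi1 and Atp6v1g3 and 0.59 for Atp6v0d2 and Atp6v1g3.

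Car2 had r = -0.25 with Atp6v1g3 and -0.38 with Foxi1 over the 14 libraries, and -0.33 and -0.37 over 16. For Atp6v1c2 the values rested on the libraries used: r with Foxi1 was -0.39 over 14 and 0.18 over 16, with Atp6v1g3 -0.53 and -0.17, and with Car2 0.45 and 0.23. Atp6v0a4 had r = 0.50 with Car2 over 14 libraries and 0.47 over 16, 0.44 and 0.33 with Foxi1, and 0.44 and -0.014 with Atp6v1g3. Atp6v1b1 had r from -0.099 with Car2 to 0.10 with Atp6v0a4 over 14 libraries, and from -0.38 with Atp6v0a4 to 0.29 with Atp6v1g3 over 16, and its low counts limit what any correlation could show.

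The genes most like Atp6v1b1 over 16 libraries were Mrpl11, a mitochondrial ribosomal protein gene (r = 0.84), Tsc22d4 (r = 0.82), Osr2 (r = 0.80), Inpp5e (r = 0.79) and Pp2d1 (r = 0.79). Over the 14 libraries none of these was among the nearest 5, which were Tomm40l (r = 0.81), Ppp1r42 (r = 0.79), Capn8 (r = 0.79), Plcd3 (r = 0.78) and Ppil2 (r = 0.77). Most like Foxi1 over the 14 libraries were Rfk, the riboflavin kinase gene (r = 0.92), Phax (r = 0.89) and Npl (r = 0.88), and the same 3 genes held the first 3 places over 16 libraries at r = 0.83 each.

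Levels of Gpx5, a secreted peroxidase of the caput epididymis, are given beside Foxi1 because both varied within a diet. In CD, Gpx5 stood at 1999 CPM in CD 2, 1301 in CD 4, 996 in CD 7 and 242 in CD 6, and between 1.42 and 25.2 CPM in the other 4 libraries. Foxi1 in the same order stood at 63.5, 42.2, 60.1 and 40.4 CPM, and between 22.9 and 39.1 CPM in the other 4. Atp6v1g3 in that order had 119, 72.4, 109 and 65.4 CPM, and 45.9 to 63.7 CPM in the other 4. The remaining 5 members overlapped between these libraries: Car2 had 109 to 221 CPM in the former and 162 to 360 in the latter, Atp6v0d2 24.3 to 58.5 and 18.1 to 37.5, Atp6v1c2 23.4 to 33.5 and 22.7 to 50.7, Atp6v0a4 2.44 to 10.1 and 1.69 to 9.91, and Atp6v1b1 3.36 to 3.88 and 2.31 to 7.66. In HFD, from the highest Gpx5 to the lowest, Foxi1 stood at 37.6 CPM in HFD 5, 29.5 in HFD 6, 48.1 in HFD 2, 20.6 in HFD 8, 41.1 in HFD 3, 35.1 in HFD 4, 27.0 in HFD 7 and 39.0 in HFD 1, with Gpx5 running from 7826 to 7.87 CPM. The share of all genes tested that separate in the same split of CD libraries was not counted. The part of caput RNA in the levels of these genes was not tested.

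Other genes of proton and bicarbonate transport were read from lists fixed by name, and 0 passed the adjusted threshold with edgeR in any list. Of 15 further V-ATPase subunits 14 were tested, 4 of them above 0 and 10 below on the log2 scale (median -0.13, or 0.11 without HFD 4 and HFD 8). The most abundant per kilobase were Atp6ap1, an accessory subunit, with a mean of 262 CPM ± 129 (SD, n = 8) in HFD and 309 ± 66.1 in CD, Atp6v1f with 52.5 ± 11.5 and 41.3 ± 7.02, and Atp6v0e with 142 ± 59.5 and 159 ± 31.1. Of all 13149 genes tested, 10.2% were higher and 1.10% lower in HFD at an unadjusted p under 0.05. Of these subunits, 0 were higher and 1 lower, Atp6v0b of the proton-carrying ring, with 23.8 CPM ± 11.1 in HFD and 36.9 ± 9.27 in CD. Its log2 fold change was -0.63, and -0.39 without HFD 4 and HFD 8. Atp6v0c, which encodes the main ring subunit, had 0 reads counted in all 16 libraries. Near-identical copies of this gene exist in the genome, and not uniquely aligned reads entered no gene, so this 0 does not show that the transcript was absent.

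Carbonic anhydrases other than Car2 were mostly scarce. Of 15 such genes 4 were tested, with 0 log2 fold changes above 0 and 4 below (median -0.31, or -0.0020 without HFD 4 and HFD 8). Of these, 0 had an unadjusted p under 0.05, against 11.3% of all genes. Car4, a membrane-anchored form, stood at 121 CPM per kb ± 48.7 (SD, n = 16), and Car2 was above it in 5 of 16 libraries. Car4 had 234 CPM ± 116 in HFD and 242 ± 77.5 in CD, with 111 CPM in HFD 4 and 62.4 CPM in HFD 8. Car5b, a mitochondrial form, had 66.8 CPM ± 31.1 in HFD and 82.1 ± 12.9 in CD, and Car3 11.5 ± 11.5 and 17.6 ± 8.99. The log2 fold change of Car5b was -0.29, and -0.0020 without HFD 4 and HFD 8.

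Of 21 bicarbonate, chloride and proton transporters 15 were tested, 6 positive and 9 negative (median -0.094, or -0.0046 without HFD 4 and HFD 8). Slc9a3r1, a scaffold gene, averaged 68.1 CPM ± 19.01 (SD, n = 8) in HFD and 72.8 ± 24.0 in CD, and the exchanger Slc9a2 26.0 ± 24.4 and 24.0 ± 17.4. At an unadjusted p under 0.05, 2 of the 15 were higher in HFD and 0 lower, beside 10.2% and 1.10% of all genes. The 2 were Cftr, with 22.04 CPM ± 15.2 and 7.72 ± 3.27, and the bicarbonate cotransporter Slc4a7, with 56.7 ± 24.4 and 38.9 ± 7.78. On the log2 scale Cftr differed by 1.51, and by 0.92 without HFD 4 and HFD 8, and Slc4a7 by 0.54 and 0.27. Slc26a4 and Slc4a9, chloride-bicarbonate exchangers known from FOXI1-positive kidney cells and named here after their values were seen, had 1 and 46 reads over all libraries, and 25 of the latter were in HFD 8.

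Genes of V-ATPase assembly and of clear cell signalling completed the pathway. Of 12 assembly and regulation genes 11 were tested, 5 positive and 6 negative (median -0.0041, or 0.047 without HFD 4 and HFD 8). Rogdi averaged 81.4 CPM ± 18.2 (SD, n = 8) in HFD and 82.7 ± 25.3 in CD, Ccdc115 36.9 ± 20.1 and 49.0 ± 10.6, and Oxr1 119 ± 27.0 and 104 ± 37.5. At an unadjusted p under 0.05, 1 of the 11 was higher in HFD, beside 10.2% of all genes. It was Atp6ap1l, with 18.2 CPM ± 25.3 and 3.79 ± 4.08, and its HFD mean without HFD 4 and HFD 8 was 4.91 CPM.

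Of 22 signalling genes present, 14 were tested, 6 positive and 8 negative (median -0.019, or -0.12 without HFD 4 and HFD 8). Rac1, a small GTPase that shapes the actin skeleton, averaged 304 CPM ± 107 (SD, n = 8) in HFD and 393 ± 52.6 in CD, the vesicle protein gene Vamp3 97.7 ± 28.6 and 113 ± 23.8, and the actin-severing gelsolin gene Gsn 115 ± 72.3 and 109 ± 69.7. At an unadjusted p under 0.05, 2 of the 14 were higher in HFD and 1 lower, beside 10.2% and 1.10% of all genes. Adcy10 and Prkg1 were higher. The adenosine receptor gene Adora2b was lower, with 1.90 CPM ± 1.11 in HFD and 5.34 ± 3.67 in CD. Adcy10, the bicarbonate-sensing adenylyl cyclase of sperm and clear cells, had 153 CPM ± 215 in HFD and 34.8 ± 22.4 in CD, and without HFD 4 and HFD 8 its HFD mean was 41.4 ± 19.6 (SD, n = 6). Prkg1, a cGMP-dependent kinase gene, had 103 CPM ± 178 and 32.6 ± 25.7, and without these libraries its HFD mean was 27.9 CPM. The genes of these lists at an unadjusted p under 0.05 had edgeR adjusted p of 0.434, and 0.439 for Prkg1.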

How the data were processed

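RNA of motile sperm of 16 male mice, 8 per diet, was measured by RNA sequencing. Per the labels' protocols, 2 ng of RNA was cleared of DNA with DNaseI and amplified to cDNA (Ovation RNA Seq V2), of which 250 ng entered each library. The deposited values are raw read counts per gene symbol, in 1 column for each mouse. STAR, HTSeq 1.0.0, DESeq2 1.0.19 and the build mm10 are listed, per the submitters' processing notes, without role or order, and these state neither annotation nor strand setting. Library sizes and tests left out the 5 rows that name no gene; reads in no annotated feature made up 58.0% to 76.1% of a library, and not uniquely aligned reads 15.8% to 30.7%. Over all 120 pairs of libraries chi-square per degree of freedom was at least 8.86, so none was a copy of another.

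Diets were compared over the whole table with edgeR 4.0.16 in R 4.3.3 (quasi-likelihood F-test, robust, TMM factors, default filter by diet, diet the sole term, Benjamini-Hochberg over 13149 genes, threshold 0.05). The SE of a log2 fold change is its size over the square root of F. CPM per kb uses GENCODE M21 exon lengths on GRCm38, the assembly that mm10 denotes. Log2 CPM for likeness used a prior count of 2, and isoform ratios a pseudocount of 1. Steps were tested on simulated data. Alternatives used DESeq2 1.42.0, limma 3.58.1, other scalings and filters, a block, and fewer libraries. Members, lists and the comparison without HFD 4 and HFD 8 were chosen with earlier results of these data known. Named were the members, their partners, the 3 most abundant tested genes per kilobase of each pathway list and the 5 genes most like Atp6v1b1 over 16 and over 14 libraries; 1 gene that this rule names is not reported here. Genes at an unadjusted p under 0.05 in the pathway lists, Gpx5, the genes most like Foxi1, the likeness between members, and the untested genes named were added after their values were seen.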

Additional observations from a re-analysis of the deposited data

Results flagged for a closer look

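Of 34 sets of 8 values examined (the 12 member and partner genes and the 5 isoform shares, in each diet), 2 held a value far from the other 7. Chance gives about 1 in 20, so 2 of 34 is near the number that chance alone gives. The shares were computed from the same genes, so the sets are not independent. Atp6v1b1 made up 27.5% of the B subunit pair per length in HFD 4, and the next highest HFD library stood at 12.2%; the library had 26 reads of Atp6v1b1 and 83 of Atp6v1b2. Atp6v0d2 made up 13.7% of the d subunit pair in CD 3, and the next lowest CD library stood at 21.8%.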

How the results depend on the processing

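No member passed an adjusted p of 0.05 under any of the 11 alternative fits or the 16 fits without 1 library, with a smallest adjusted p of 0.248 and a smallest unadjusted p of 0.0736; of these 189 values 169 kept their direction and 20 turned it, most of them near 0. The isoform ratios had exact permutation p of 0.0772 or more throughout. The number of genes called was 0 in each fit except DESeq2, which called 1 gene, and with edgeR on all libraries 1482 genes had an unadjusted p under 0.05. That number was 2258 with DESeq2, 500 with limma-voom and library quality weights, 3146 with library sizes from the principal cell list, 2518 with no expression filter, 292 without HFD 4 and HFD 8, and 516 without HFD 4, 689 without HFD 8 and at most 2020 without any other single library. The cause of the turns below was not tested. Log2 fold changes that turned sign without HFD 4 and HFD 8 became 0.036 for Atp6v0a4, -0.018 for Atp6v1g3, 0.017 for Atp6v0d2, 0.035 for Atp6v1b2, -0.013 for Atp6v1c1, 0.094 for Atp6ap1, 0.13 for Atp6v0e, 0.24 for Car4, 0.068 for Slc9a3r1, -0.45 for Gsn and -0.20 for Prkg1, and the C pair ratio became 0.0016. With limma-voom and quality weights they were 0.12 for Atp6v0a4, -0.093 for Atp6v1g3, 0.050 for Car2, 0.020 for Atp6v1b2, 0.023 for Atp6v0d1, 0.0098 for Atp6v0e, 0.14 for Car4, 0.025 for Car5b, 0.026 for Slc9a3r1, -0.33 for Gsn and -0.55 for Atp6ap1l. With library sizes from the principal cell list, which is low in HFD 4 and HFD 8, they were 0.059 for Atp6v0a4, 0.30 for Atp6v0d2, 0.32 for Foxi1, 0.63 for Car2, 0.28 for Atp6v1b2, 0.47 for Atp6v0d1, 0.031 for Atp6v0e, 0.80 for Rogdi, 0.044 for Car4, 0.32 for Slc9a3r1 and 0.25 for Vamp3. With DESeq2's size factors in edgeR Rogdi stood at 0.0098. Leaving out 1 library gave -0.10 to 0.18 for Atp6v1g3, -0.33 to 0.024 for Atp6v0d2, -0.20 to 0.032 for Car2, -0.22 to 0.0071 for Atp6v0d1, -0.12 to 0.093 for Rogdi, -0.26 to 0.38 for Slc9a2, -0.18 to 0.10 for Car4, -0.17 to 0.35 for Gsn and -0.19 to 0.014 for Slc9a3r1. For the ratios it gave -0.017 to 0.45 for the a pair, -0.24 to 0.085 for the G pair and -0.30 to 0.078 for the d pair.

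The title numbers 1 to 8 recur in both diets and no label ties them to a shared litter or day. Same-numbered libraries had correlations of deviations from -0.395 to 0.605, and 2 of the 8 HFD libraries correlated best with their own number. These values cannot show whether same-numbered libraries share a litter or day. With the number as a replicate block 0 genes were called and 314 had an unadjusted p under 0.05, and values that turned sign were -0.0040 for Atp6v1g3, 0.0053 for Car2, 0.013 for Rogdi and -0.31 for Slc9a2. For the 5 ratios the block gave exact permutation p of 0.203 or more.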
